A study of Mus musculus with 5 samples.

Results

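The genes described here encode the collagen chains and the proteins that fold, modify, trim, cross-link or bind collagen. They were measured in RNA recovered on anti-FLAG beads from cells with FLAG-tagged survival of motor neuron protein (SMN) and from control cells. SMN is deficient in spinal muscular atrophy. Members were the genes with a collagen chain symbol together with Pcolce, Pcolce2, Sparc, Lox, Loxl1, Loxl2, Bmp1, Serpinh1, Plod1, Plod2, Plod3, Fn1, Dcn and Lum, each read from a probe set that carries no other gene's symbol. Genes were selected on name, then chosen by signal level for the brightest probe set and for the line of array background. This gave 59 probe sets for 57 genes, of 19937 genes with a probe set of their own, and 44 of the 57 were collagen genes. Loxl2 had no such probe set, because its probe set also carries the symbol Gm21451.

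The cells were NSC-34, a mouse hybrid line of neuroblastoma and spinal cord motor neurons. The FLAG-SMN IP group comprised 3 arrays of anti-FLAG precipitates from NSC-34 cells that contain a 3XFLAG-flSMN construct, and the control IP group comprised 2 arrays of anti-FLAG precipitates from NSC-34 cells without a FLAG construct. Both groups were differentiated in 1% serum (3 days in one protocol, 48 hours in another), received doxycycline at 3 µg/ml over 3 days, and had their RNA and protein crosslinked by ultraviolet light (400 mJ/cm2) before precipitation on anti-FLAG M2 beads. The control precipitates hold RNA that the beads retain with no tagged protein, and input RNA was not analysed here, so RNA abundance in the lysates is not taken into account. The labels used here give neither the promoter of the construct nor the number of clones, and they do not call the replicates separate cultures. The p-values therefore measure only the spread between these arrays, which may be technical.

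Collagen chains are made on the rough endoplasmic reticulum, where lysyl hydroxylases (the Plod proteins) modify them and the chaperone Hsp47, encoded by Serpinh1, holds the triple helix in its folded state. After secretion the metalloproteinase encoded by Bmp1 removes the C-propeptide of fibrillar procollagens, a step that the protein encoded by Pcolce accelerates, and lysyl oxidases then cross-link the fibrils. These genes are best known from fibroblasts, cartilage and bone, although cells of neural origin make basement membrane collagens and several matrix proteins as well.

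A level is here the mean of the 2 group means of the deposited log2 signal at a gene's brightest probe set. Array background was taken as the median of presumed control probe sets, 4.44, and their 75th percentile, 6.13, served as a stricter line. By the first line 50 of the 57 genes (87.7%) were above background, among them 40 of 44 collagen genes. Of all 19937 genes 68.7% were above this line. By the stricter line 16 genes were left, and these comprised 7 of the 44 collagen genes (15.9%) but 9 of the 13 processing and binding genes (69.2%), where 43.6% of all 19937 genes lay above it. Most collagen probe sets therefore gave values inside the range of the presumed controls, and their small differences are measured close to background. The levels chose the members above background, so these shares are a description.

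**Figure D1:**
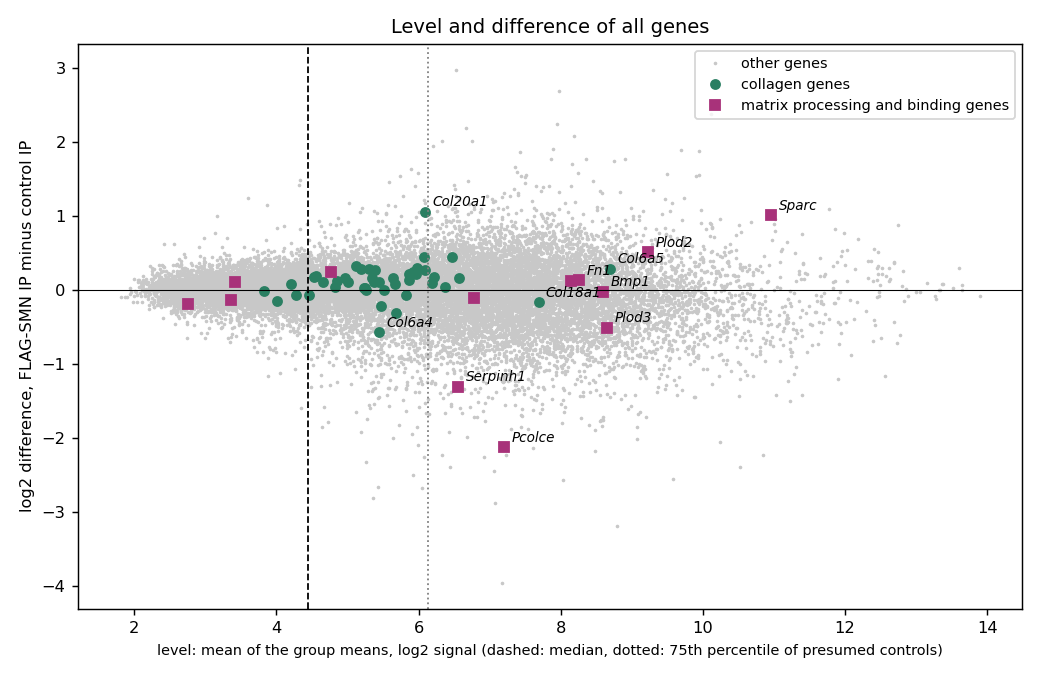
Log2 difference, FLAG-SMN IP minus control IP (y axis), against level, the mean of the 2 group means of the log2 signal (x axis), with 1 point per gene at its brightest probe set. The dashed and dotted lines are the median (4.44) and the 75th percentile (6.13) of the presumed control probe sets, and most collagen genes lie between them while Pcolce, Serpinh1, Plod3 and Sparc lie to the right of the dotted line.

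The 7 genes not above background were Col5a2, Col8a1, Col10a1, Col12a1, Lox, Dcn and Lum. Lox, the founding lysyl oxidase, was at 3.23, 3.41 and 3.23 in FLAG-SMN IP and at 3.70 and 3.16 in control IP. The genes nearest the line were Col4a6 (4.46) just inside it and Col8a1 (4.27) just outside it. Of the 50 genes above background, 47 were above it in both groups, and Col28a1, Col19a1 and Col4a6 were above it in FLAG-SMN IP only. Where only these 50 genes are counted, the other 7 are left out.

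The labelled cell type was checked against its markers. Of 12 motor neuron markers 10 were above background and 3 above the stricter line (Nefh, Nefl and Ache), while Mnx1 and Slc5a7 were not above background. Chat, Slc18a3, Isl1, Isl2, Lhx3, Lhx4 and Nefm lay between the 2 lines, with Chat (level 4.49) close to the lower one. Of all genes 68.7% were above background and 43.6% above the stricter line. Of 12 fibroblast and mesenchymal markers 7 were above background and likewise 3 above the stricter line (Vim, Pdgfra and Thy1). The smooth muscle and fibroblast genes Acta2, Tagln, Fap, Prrx1 and Tcf21 were not above background. The linear signal summed over that list was 2828 to 3218 in FLAG-SMN IP and 1648 to 2646 in control IP, with Vim as its brightest gene at 11.26, 11.23 and 11.41 in FLAG-SMN IP against 10.20 and 11.06 in control IP. The first FLAG-SMN array differed from the rest of its group, with Pearson r = 0.964 and 0.968 to replicates 2 and 3 across all probe sets, where replicates 2 and 3 reached r = 0.989 and the control arrays r = 0.98. FLAG-SMN IP replicates 2 and 3 each had higher r with both control arrays (0.968 to 0.977) than with FLAG-SMN IP replicate 1. The arrays were thus not ordered by group alone. These r values are across probe sets, which are no replicates, and describe the arrays without a test.

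Setting the FLAG-SMN precipitates against the control precipitates asks which RNAs accompany SMN. Of the 50 genes, Pcolce alone passed the adjusted threshold of 0.05 over all 28187 probe sets (limma), and it was lower in FLAG-SMN IP. It did not pass under cyclic loess scaling (limma adjusted p = 0.0907), with the replicate number as a block (0.0877) or with all table rows tested (0.151). Over all genes above background 0.0365% passed in that direction and 0.0073% in the other, in which no member passed. An unadjusted p under 0.05 was reached by 3 members with higher values (Col20a1, Sparc and Col2a1) and 4 with lower values (Pcolce, Serpinh1, Plod3 and Col6a4), which is 6.0% and 8.0% of the 50. The same criterion took 4.5% and 10.1% of the 13700 genes above background, so the shares among the members lay near those of all genes. Members were chosen with results of these data known, and no test of the list as a whole was made.

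The median difference of the 50 genes was 0.13 on the log2 scale, and over all 13700 genes above background it was -0.013. Differences were positive in 38 of the 50 genes, and in 6628 of all 13700 genes above background. Between the 2 background lines they were positive in 2689 of 5005 genes. The median was 0.29 without control IP replicate 1, and -0.052 without control IP replicate 2, so its sign rests on the control arrays. The groups did not overlap at 5 genes with higher and 6 with lower values in FLAG-SMN IP (10.0% and 12%), where 12% and 18.5% of all genes above background were of each kind.

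**Figure D2:**
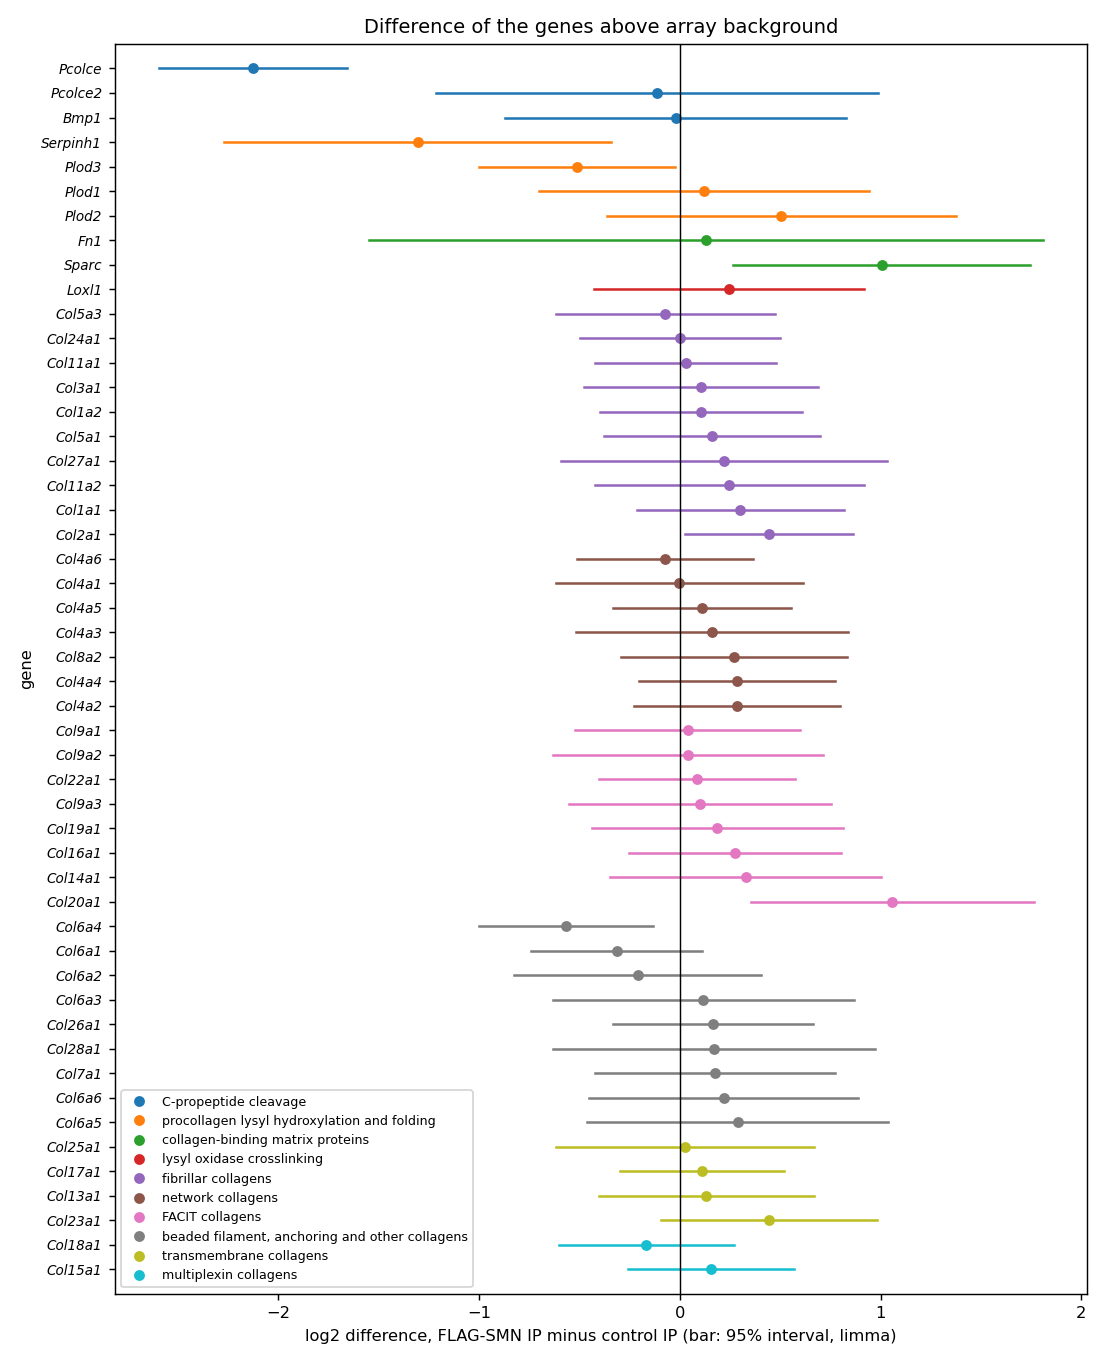
Log2 difference, FLAG-SMN IP minus control IP (x axis), of the 50 genes above background (y axis), coloured by role, with the 95% interval of the limma fit as a bar. Pcolce at -2.13 is farthest from 0, the intervals of Serpinh1, Plod3 and Col6a4 also lie below 0, those of Sparc, Col20a1 and Col2a1 lie above 0, and all other intervals include 0.

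Among the genes of C-propeptide cleavage, the enhancer gene and the protease gene had different values. Pcolce (probe set 10534862), whose product binds the C-propeptide and speeds its removal, was at 6.23, 5.96 and 6.24 in FLAG-SMN IP and at 8.41 and 8.13 in control IP. All 3 FLAG-SMN arrays lay below both control arrays, and the FLAG-SMN values were close to the 75th percentile of the presumed controls. Its mean was 6.15 ± 0.16 (SD, n = 3) in FLAG-SMN IP against 8.27 ± 0.20 (SD, n = 2) in control IP, a log2 difference of -2.13 (SE 0.20, 95% interval -2.59 to -1.66), or 4.36-fold lower (limma adjusted p = 0.0496). The difference stayed between -2.27 and -1.98 whichever array was left out. The call did not: without FLAG-SMN IP replicate 1 the limma adjusted p was 0.00967, but it was 0.141 and 0.174 without FLAG-SMN IP replicates 2 and 3, and 0.352 and 0.456 without control IP replicates 1 and 2, where a lone control array is assumed to vary like the FLAG-SMN arrays.

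Bmp1, the procollagen C-proteinase that Pcolce protein assists, was at 7.94, 8.97 and 8.86 in FLAG-SMN IP and at 8.32 and 8.90 in control IP. The groups overlapped, with replicate 1 the lowest array in each, and the log2 difference was -0.021 (SE 0.36, 95% interval -0.87 to 0.83; limma adjusted p = 0.999). Pcolce2, the related second enhancer gene, was at 5.84, 6.96 and 7.38 in FLAG-SMN IP and at 6.48 and 7.20 in control IP. Again replicate 1 was lowest in both groups, and the difference of -0.11 (SE 0.46, 95% interval -1.21 to 0.99; limma adjusted p = 0.989) was smaller than the spread between arrays. The signs of both genes turned positive without FLAG-SMN IP replicate 1, to 0.30 for Bmp1 and 0.33 for Pcolce2. Without control IP replicate 2 both signs were positive as well. The interval of Pcolce lay below those of both relatives, though a difference between these genes was not tested.

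**Figure D3:**
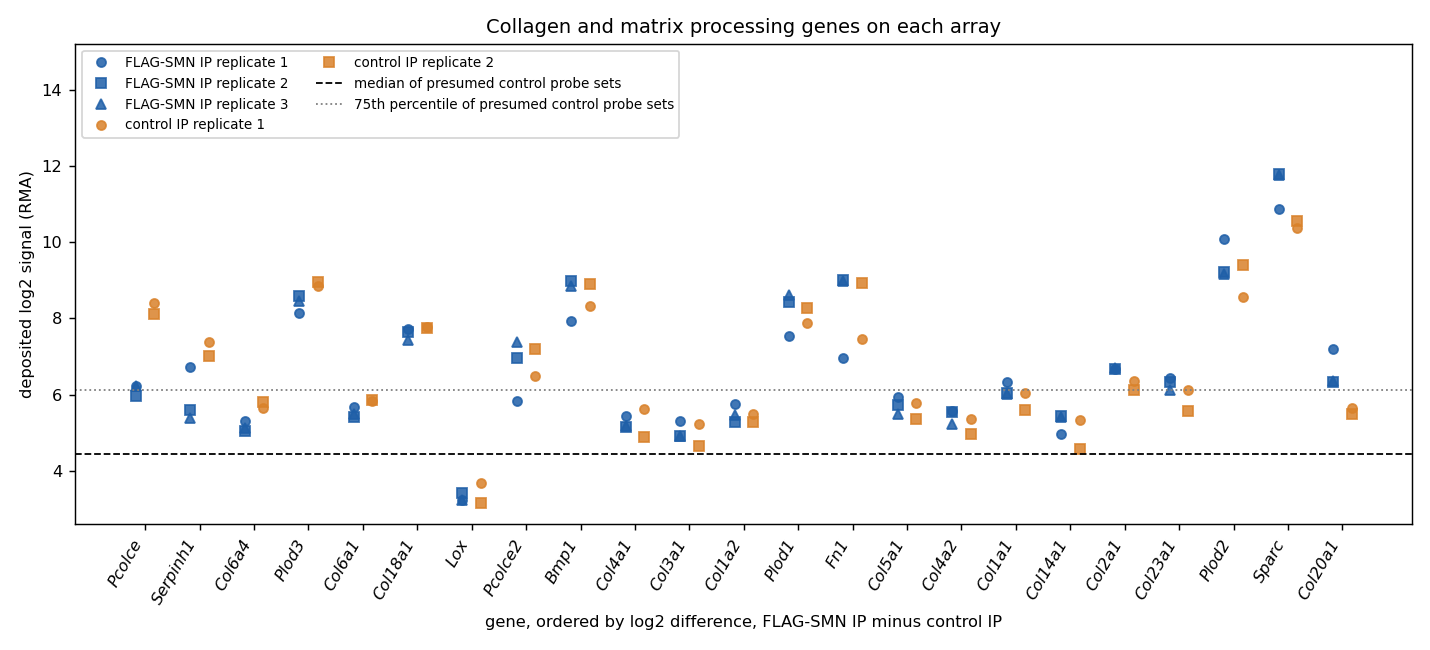
Deposited log2 signal on each array (y axis) of 23 named genes, ordered by log2 difference (x axis), with FLAG-SMN IP in blue to the left of control IP in orange and 1 symbol shape per replicate number. The blue and orange points are farthest apart at Pcolce, whereas at Fn1, Bmp1, Pcolce2 and Plod1 the replicate 1 arrays (circles) lie lowest in both groups.

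Of the 4 genes for folding and lysyl hydroxylation, Serpinh1 and Plod3 had values below control IP on every FLAG-SMN array, as did 18.5% of all genes above background. Serpinh1, the gene of the collagen chaperone Hsp47, was at 6.73, 5.59 and 5.39 in FLAG-SMN IP and at 7.39 and 7.03 in control IP. Replicate 1 stood above the other FLAG-SMN arrays, and the mean was 5.91 ± 0.72 (SD, n = 3) in FLAG-SMN IP against 7.21 ± 0.26 (SD, n = 2) in control IP. The log2 difference of -1.30 (SE 0.41, 2.47-fold) did not pass over all probe sets (limma adjusted p = 0.315). Without FLAG-SMN IP replicate 1 it was -1.72 and passed (limma adjusted p = 0.0185). In that fit 154 of all 19937 genes passed with lower values, against 5 in the main fit.

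Plod3, which encodes a lysyl hydroxylase that also glycosylates hydroxylysine, was at 8.13, 8.59 and 8.46 in FLAG-SMN IP and at 8.85 and 8.96 in control IP. The difference of -0.51 (SE 0.21) was small and did not pass (limma adjusted p = 0.454). Plod2, the hydroxylase of the collagen telopeptides, was at 10.07, 9.21 and 9.18 in FLAG-SMN IP and at 8.56 and 9.40 in control IP, so the groups overlapped (0.51, SE 0.37; limma adjusted p = 0.776). Its difference was 0.090 without control IP replicate 1 and 0.92 without control IP replicate 2. Plod1, the hydroxylase of the helix, was at 7.54, 8.44 and 8.62 in FLAG-SMN IP and at 7.88 and 8.28 in control IP. Its difference of 0.12 (SE 0.35; limma adjusted p = 0.98) turned to -0.088 without FLAG-SMN IP replicate 3 and to -0.077 without control IP replicate 1. The signs of the 3 hydroxylase genes were thus mixed.

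Of the collagen-binding proteins, Sparc had higher values in FLAG-SMN IP. Sparc encodes a secreted protein that binds collagen and calcium, and its values were 10.86, 11.78 and 11.76 in FLAG-SMN IP and 10.37 and 10.56 in control IP. All FLAG-SMN arrays lay above both control arrays, with replicate 1 nearest to them. The mean was 11.47 ± 0.52 (SD, n = 3) in FLAG-SMN IP against 10.46 ± 0.13 (SD, n = 2) in control IP, 2.01-fold apart (log2 difference 1.01, SE 0.31, limma adjusted p = 0.314). Without FLAG-SMN IP replicate 1 it was 1.31 and passed (limma adjusted p = 0.0316), the only member to pass in this direction under any alternative. In that fit 75 of all 19937 genes passed with higher values, against 1 in the main fit.

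Fn1, the gene of fibronectin, was at 6.97, 9.02 and 8.99 in FLAG-SMN IP and at 7.46 and 8.93 in control IP. Its values differed by array more than by group: both replicate 1 arrays were low and the other 3 arrays lay within 0.1 of each other. The difference was 0.13 with an SE of 0.71 (95% interval -1.55 to 1.81; limma adjusted p = 0.992), and it was negative without control IP replicate 1 and without either of FLAG-SMN IP replicates 2 and 3. Loxl1, the lysyl oxidase of elastic fibres and the single lysyl oxidase gene above background among the members, gave 0.24 (SE 0.28; limma adjusted p = 0.904). Loxl3 (level 6.34) and Loxl4 (level 5.12), which are no members and were read in another list, were also above background. The small leucine-rich proteoglycan genes Dcn and Lum were not above background.

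The 40 collagen genes above background had a median difference of 0.14, with differences from -0.57 to 1.06. In limma 0 of them passed the adjusted threshold, and an unadjusted p under 0.05 was reached by 2 with higher values and 1 with lower values (5.0% and 2.5%, against 4.5% and 10.1% of all genes). The chains of type I collagen, the main fibrillar collagen of bone and skin, showed no separation. Col1a1 was at 6.34, 6.05 and 6.01 in FLAG-SMN IP and at 6.05 and 5.61 in control IP (0.30, SE 0.22; limma adjusted p = 0.773), and Col1a2 gave 0.11 (SE 0.21; limma adjusted p = 0.964). The difference of Col1a1 was 0.52 without control IP replicate 1 and 0.085 without control IP replicate 2. Col3a1, the chain of the fibrillar collagen of soft tissues, gave 0.11 (SE 0.25) and Col5a1, a chain that regulates fibril diameter, gave 0.16 (SE 0.23). Col2a1, the cartilage collagen gene, was at 6.68, 6.68 and 6.70 in FLAG-SMN IP and at 6.36 and 6.13 in control IP. The groups did not overlap, the difference was 0.44 (SE 0.18) and it did not pass (limma adjusted p = 0.447).

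Network-forming collagens of basement membranes also stayed near 0. Col4a1 and Col4a2, which are transcribed in opposite directions from a shared promoter, gave -0.0030 (SE 0.26) and 0.29 (SE 0.22). Col4a1 was at 5.43, 5.15 and 5.18 in FLAG-SMN IP and at 5.63 and 4.89 in control IP, with the control arrays on either side of the FLAG-SMN arrays. The 7 network collagens above background had a median of 0.16 and differences from -0.074 to 0.29, and none passed at an unadjusted p under 0.05, which is also true of the 4 transmembrane and the 2 multiplexin collagens. Col18a1, the multiplexin from which endostatin is released and 1 of the 7 collagen genes above the stricter line, was at 7.73, 7.65 and 7.43 in FLAG-SMN IP and at 7.78 and 7.76 in control IP (-0.17, SE 0.18; limma adjusted p = 0.894).

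Collagens that associate with fibrils (FACIT collagens) held the largest collagen difference. Col20a1 was at 7.19, 6.33 and 6.36 in FLAG-SMN IP and at 5.65 and 5.48 in control IP. All FLAG-SMN arrays were higher, with replicate 1 the highest, and the log2 difference was 1.06 (SE 0.30, 2.08-fold; limma adjusted p = 0.27). Both control values lay below the 75th percentile of the presumed controls. Col14a1, another chain of this kind, gave 0.33 (SE 0.28) with overlapping groups, and the 8 chains above background had a median of 0.14. Among transmembrane chains, Col23a1 was at 6.43, 6.34 and 6.13 in FLAG-SMN IP and at 6.12 and 5.58 in control IP (0.44, SE 0.23; limma adjusted p = 0.587). Its difference was 0.71 without control IP replicate 1 and 0.18 without control IP replicate 2.

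The chains of type VI collagen, which forms beaded microfilaments, differed in sign. Col6a4 was at 5.31, 5.06 and 5.12 in FLAG-SMN IP and at 5.65 and 5.81 in control IP, a difference of -0.57 (SE 0.18; limma adjusted p = 0.333). Col6a1 was at 5.67, 5.41 and 5.51 in FLAG-SMN IP and at 5.83 and 5.85 in control IP (-0.31, SE 0.18; limma adjusted p = 0.651), and neither gene's groups overlapped. Col6a2 gave -0.21 (SE 0.26) and Col6a3 gave 0.12 (SE 0.32). Col6a5 and Col6a6 each had a pair of probe sets, all with small positive differences from 0.10 to 0.35. The pair of Col6a5 was above the stricter line, with 9.45, 8.52 and 8.56 in FLAG-SMN IP against 8.44 and 8.67 in control IP at the brighter probe set.

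The spread between arrays of the same group had a pattern of its own. Of the 40 collagen genes, 33 (82.5%) were highest on replicate 1 among the FLAG-SMN arrays, and 37 (92.5%) were higher on replicate 1 than on replicate 2 of control IP. Over all genes above background these shares were 44.5% and 43.1%. Over all genes with a level between the median and the 75th percentile of the presumed controls they were 51.8% and 64.2%, and over the 33 collagen genes in that range 84.8% and 93.9%. The median shift of the 40 collagen genes was 0.22 in FLAG-SMN IP (replicate 1 minus the mean of replicates 2 and 3) and 0.42 in control IP (replicate 1 minus replicate 2), larger than their median difference between the groups. Of the 10 processing and binding genes, 6 (Fn1, Pcolce2, Bmp1, Plod1, Plod3 and Sparc) were lowest on replicate 1 in both groups, against 25.4% of all genes above background and 32.1% of all genes above the stricter line. Serpinh1 and Pcolce had positive replicate 1 shifts in both groups, as most collagen genes had, and the shifts of Plod2 and Loxl1 differed in sign between the groups. These counts were made after the values were seen, and the part of the array in the differences was not tested.

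**Figure D4:**
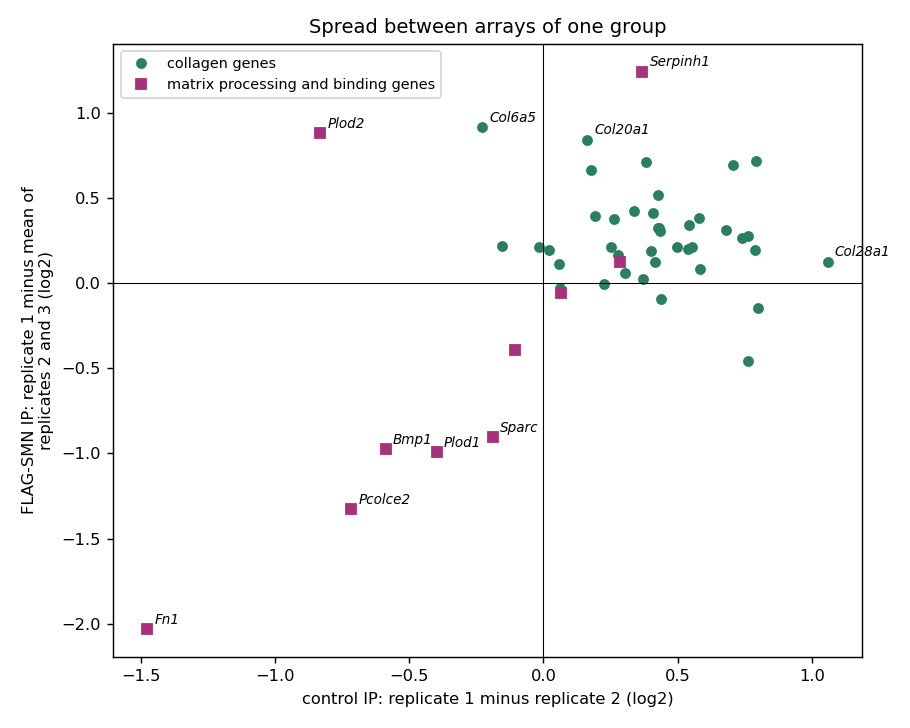
Replicate 1 minus the mean of replicates 2 and 3 in FLAG-SMN IP (y axis) against replicate 1 minus replicate 2 in control IP (x axis), both in log2 units, with 1 point per gene above background. Of the 40 collagen genes 32 lie in the upper right, and Fn1, Pcolce2, Bmp1, Plod1, Plod3 and Sparc lie in the lower left.

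Other genes of matrix production were read from fixed lists, none of whose members passed over all probe sets. Of 13 genes for prolyl and lysyl modification above background, 12 had positive differences (median 0.38), as had 6628 of all 13700 genes above background. An unadjusted p under 0.05 was reached by 2 genes with higher values and 1 with lower values (15.4% and 7.69%, against 4.5% and 10.1% of all genes). All 13 were lower on replicate 1 than on replicate 2 of control IP, as were 56.9% of all genes above background. Without control IP replicate 1 the median was 0.097 with 9 positive differences, while without control IP replicate 2 it was 0.76 with 12. P3h4, which encodes a partner of lysyl hydroxylation complexes, was at 8.03, 7.98 and 7.99 in FLAG-SMN IP and at 6.95 and 7.16 in control IP (0.95, SE 0.17; limma adjusted p = 0.147). P4ha2, a catalytic subunit of prolyl 4-hydroxylase, was at 9.54, 7.35 and 7.67 in FLAG-SMN IP and at 6.31 and 6.87 in control IP (1.60, SE 0.63; limma adjusted p = 0.44), with replicate 1 far above the rest, and it is named after its value was seen. Colgalt2, a collagen galactosyltransferase gene, gave -1.17 (SE 0.43), and its lowest FLAG-SMN value, 3.93, was under background.

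Of the 10 proteoglycan genes above background, 5 with lower values in FLAG-SMN IP and 0 with higher values had an unadjusted p under 0.05 (50.0%, against 10.1% of all genes), while 0 passed the adjusted threshold in limma. The groups did not overlap at 4 genes with lower values and at 1 with higher values (40% and 10%, against 18.5% and 12% of all genes). The median difference was -0.82, and it ranged from -0.82 to -0.54 with 1 array left out. Agrn, Spock1 and Bgn had differences within 0.05 of 0. Prelp, a leucine-rich proteoglycan that binds collagen, was at 5.11, 5.62 and 5.52 in FLAG-SMN IP and at 6.20 and 6.55 in control IP (-0.96, SE 0.23; limma adjusted p = 0.225). Ncan, a chondroitin sulfate proteoglycan of brain matrix, was at 6.15, 6.62 and 6.33 in FLAG-SMN IP and at 7.39 and 7.10 in control IP (-0.87, SE 0.22; limma adjusted p = 0.23). The other 3, named after their values were seen, were Spock2 (-0.76), the collagen-binding Fmod (-1.46) and the brain proteoglycan Bcan (-1.37). At Bcan the groups overlapped, because FLAG-SMN IP replicate 1 was at 7.39 and replicates 2 and 3 at 5.41 and 5.63. Leaving replicate 1 out gave -1.99, which passed (limma adjusted p = 0.015). In that fit 154 of all 19937 genes passed with lower values.

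Single genes of other lists had separated groups without passing. Timp3, an inhibitor of metalloproteinases that binds to the matrix, was at 6.50, 6.92 and 6.80 in FLAG-SMN IP and at 7.82 and 8.35 in control IP (-1.34, SE 0.24; limma adjusted p = 0.134). Tgfbi, a collagen-binding protein induced by TGF-beta, gave -1.48 (SE 0.24; limma adjusted p = 0.122). It passed narrowly without FLAG-SMN IP replicate 1 (-1.49, limma adjusted p = 0.0497), as did 154 of all 19937 genes with lower values. Pcsk6, a proprotein convertase gene, gave -1.09 (SE 0.21; limma adjusted p = 0.152), and the basement membrane protein gene Smoc1 gave -0.93 (SE 0.21). Itga3, a laminin-binding integrin subunit gene, gave -0.66 (SE 0.18). On the higher side were Lamb2 (0.60, SE 0.23) and Lama5 (0.61, SE 0.27), 2 laminin chain genes, and Smad7, an inhibitor of TGF-beta signalling (0.67, SE 0.18).

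The list medians lay near 0 for collagen export and trafficking (0.095, 13 genes, with Sec31a at -0.53 and Trappc2 at -0.57), receptors (0.080, 17 genes, with Mrc2 at 0.48) and the TGF-beta pathway (0.015, 16 genes, with Smad3 at -0.36). They were -0.23 for 9 propeptidase and further cross-linking genes (Tll2 at -0.32), -0.050 for 11 metalloproteinase and inhibitor genes (Mmp9 at -0.68), 0.17 for 8 basement membrane glycoproteins and -0.12 for 19 other matrix glycoproteins. Several of these medians changed sign with 1 array left out: without control IP replicate 1 they were -0.014 for export and trafficking, -0.12 for receptors and -0.094 for the TGF-beta pathway, and without FLAG-SMN IP replicate 3 the metalloproteinase median was 0.0020 and the TGF-beta pathway median -0.080. The TGF-beta pathway median was -0.027 without FLAG-SMN IP replicate 2. At an unadjusted p under 0.05 these 7 lists held 0 to 1 higher genes each and 0 to 2 lower ones. As shares of a list these were 0 to 12.5% higher and 0 to 11.1% lower, against 4.5% and 10.1% of all genes above background.

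**Figure D5:**
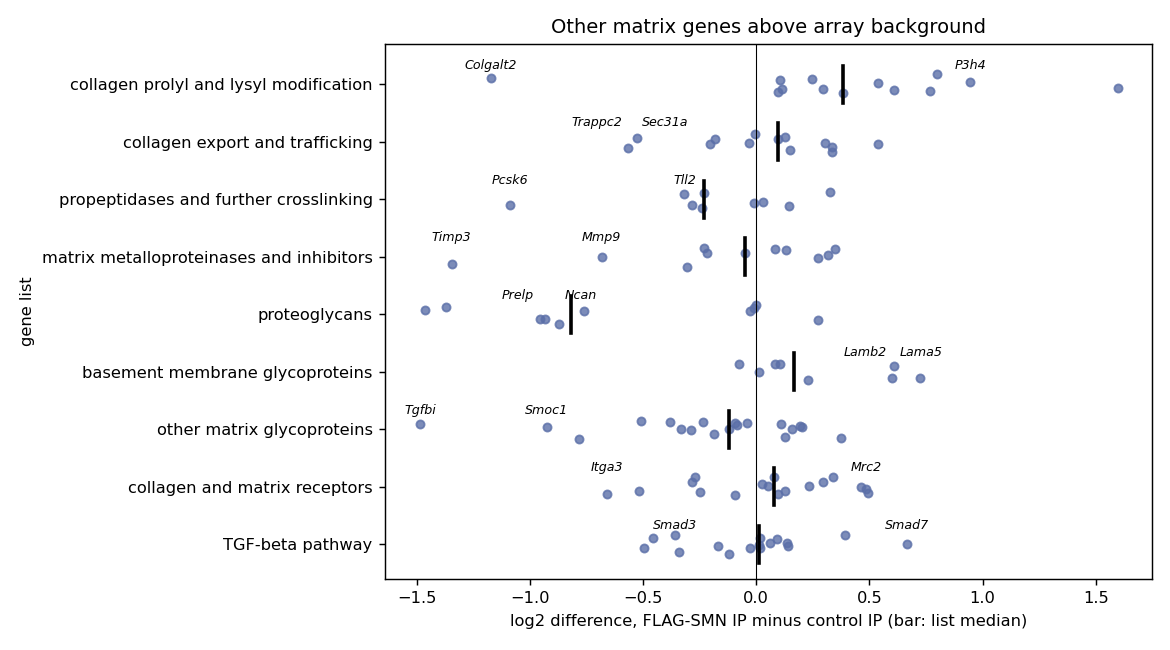
Log2 difference, FLAG-SMN IP minus control IP (x axis), of the genes above background in 9 fixed lists of matrix genes (y axis), with 1 point per gene, a black bar at each list's median and the 2 genes of smallest unadjusted p named. The proteoglycan list has the lowest median (-0.82) and the prolyl and lysyl modification list the highest (0.38).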

How the data were processed

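RNA from 3 FLAG-SMN and 2 control precipitates was measured on single-colour Affymetrix arrays. The deposited values are log2 signals that the authors made with RMA, per the submitters' processing notes, whose version is not given in the sources used here. Their range, 1.28 to 14.15, is that of log2 values. RMA brings the arrays to a common distribution, so a general difference in RNA yield is not visible. The number of arrays limits the precision. The table holds 34760 rows, and the 6573 with IDs below the lowest annotated one served as presumed controls and were not tested. Of the other 28187, 21640 carry 1 gene symbol, 1321 several and 5226 none. All 57 members matched a RefSeq table by gene ID with unchanged symbols. No coordinates are given because the array files name no build.

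limma 3.58.1 in R 4.3.3 (lmFit, eBayes, 2-sided, no block) was fitted to all 28187 probe sets with Benjamini-Hochberg adjustment, and tested on simulated data. The brightest probe set stood for a gene. Array values, the difference or both are given for genes named by rule. These were the 12 members above background with the largest absolute difference, a fixed set, and the 2 genes of smallest p in each other list. The fixed set was Pcolce, Pcolce2, Bmp1, Sparc, Serpinh1, Fn1, Lox, Plod1, Plod2, Plod3, Col1a1, Col1a2, Col3a1, Col4a1, Col4a2, Col5a1 and Col18a1. The SE and adjusted p are given for part of them. Members and lists were chosen with earlier results of these data known. Alternatives were cyclic loess, centring on probe sets above background, testing those or all table rows only, trend and robust moderation, array weights, a replicate block, each array left out in turn, averaging a gene's probe sets, and 2 other background lines.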

Additional observations from a re-analysis of the deposited data

How the results depend on the processing

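Over 60 named genes, 779 alternative values were computed, of which 734 kept both direction and side of the threshold. Pcolce passed in 6 alternatives that changed scaling by centring, the probe sets tested, the moderation, the array weights or the averaging, or left out FLAG-SMN IP replicate 1, with limma adjusted p down to 0.00967. The count of members past the adjusted threshold, 1 lower and 0 higher, fell to 0 lower under cyclic loess, with the replicate number as a block and with all table rows tested (Pcolce adjusted p = 0.0907, 0.0877 and 0.151). With 1 FLAG-SMN IP array left out it ranged from 0 to 2 lower and from 0 to 1 higher. The highest counts came without FLAG-SMN IP replicate 1. In that fit 154 of all 19937 genes passed lower and 75 higher, against 5 and 1 in the main fit. The cause was not tested. The counts at an unadjusted p under 0.05, 3 higher and 4 lower, ranged from 1 to 4 higher and from 2 to 3 lower with 1 array left out, and gave 2 lower under the replicate block. The median difference of members ranged from -0.052 to 0.29.

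Replicate numbers 1 and 2 occur in both groups, and the deviations of same-numbered arrays correlated at 0.13 for number 1 and -0.20 for number 2. FLAG-SMN IP replicate 3 reached 0.42 with control IP replicate 2. With 2 control arrays the deviations mirror each other, so these values are not separate checks and cannot settle pairing. Of the 40 collagen genes, 32 were shifted up on both replicate 1 arrays. The numbers were not taken as pairs in the main fit. The replicate block gives FLAG-SMN IP replicate 3 no weight in the difference, and under it the median was 0.20. Signs turned for genes close to 0. Under cyclic loess Bmp1 was 0.037, under centring it was 0.0054 and Col4a1 0.024, and under array weights Pcolce2 was 0.23 and Bmp1 0.18. Under the replicate block Fn1 was -0.20, Plod1 -0.088 and Col4a1 0.033. With 1 array left out the values ranged from -0.47 to 0.33 for Pcolce2, -0.32 to 0.30 for Bmp1, -0.61 to 0.87 for Fn1, -0.088 to 0.45 for Plod1, -0.37 to 0.37 for Col4a1, -0.053 to 0.71 for Col14a1, -0.40 to 0.14 for Lox, -0.024 to 0.22 for Col1a2, -0.18 to 0.39 for Col3a1, -0.052 to 0.37 for Col5a1 and -0.019 to 0.75 for the glial marker Ngfr. Leaving arrays out of the list medians, and Chgb out of its list's sum, were added after seeing the data. Signal over background limits most collagen genes.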

Other observations

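Marker lists fixed for other cell types gave these values beside the matrix genes, and their part in the results was not tested. Of 9 measured noradrenergic neuroblastoma markers all 9 were above background, as were 68.7% of all genes. Their summed linear signal was 2409 to 3860 in FLAG-SMN IP and 4968 to 5261 in control IP. Most of that gap came from the granin gene Chgb, at 10.60, 8.48 and 8.53 in FLAG-SMN IP and at 11.33 and 11.20 in control IP, and without it the sums were 2039 to 2303 in FLAG-SMN IP and 2392 to 2915 in control IP. An unadjusted p under 0.05 was reached by 2 of the 9 with higher values and 4 with lower values (22.2% and 44.4%, against 4.5% and 10.1% of all genes), and 0 passed the adjusted threshold in limma. Th, the first enzyme of catecholamine synthesis, was at 5.44, 4.58 and 4.80 in FLAG-SMN IP and at 6.91 and 6.85 in control IP (-1.94, SE 0.28; limma adjusted p = 0.0957), and Chga, another granin gene, gave -1.88 (SE 0.28). Dbh (-2.23) and Chgb (-2.06) also had lower values and Ddc (0.76) and Gata3 (0.50) higher ones, while the groups overlapped at Phox2a (-0.19), Gata2 (0.078) and Hand2 (-0.016). These 7 genes are named after their values were seen. Under some alternative Th, Chga, Dbh and Chgb passed, with lowest limma adjusted p of 0.0085, 0.0308, 0.0386 and 0.0051. Ddc and Gata3 passed under none. Of 8 measured Schwann and glial markers 6 were above background, with sums of 963 to 1227 in FLAG-SMN IP and 773 to 1073 in control IP, and Gfap and S100b were not. Sox10 gave 0.43 (SE 0.24) and Ngfr 0.36 (SE 0.27). Of 6 endothelial markers 4 were above background and 0 above the stricter line, with sums of 179 to 194 in FLAG-SMN IP and 157 to 175 in control IP. Pecam1 gave 1.00 (SE 0.26) and Kdr -0.78 (SE 0.36). The motor neuron list summed to 753 to 1317 in FLAG-SMN IP and 1130 to 1230 in control IP, with Nefh at -0.89 (SE 0.33) and Isl1 at -0.72 (SE 0.32). Of the fibroblast list, Pdgfrb gave -0.66 (SE 0.20) and S100a4 -0.68 (SE 0.23), opposite in sign to Vim (0.67, SE 0.27).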
